A study of Mus musculus with 35 samples.

Results

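The LINE-1 (L1) subfamilies counted in Smg6-cKO and control male germ cells are described here. Members were the rows that the tables of genes and transposable elements assign to the L1 family of LINE elements, with at least 10 counts in total in a table. There were 133 such subfamilies among 1146 elements and 25557 rows, and all 133 passed in spermatocytes (Spc), in round spermatids (RS) and in isolated chromatoid bodies (CBs). The lowest was L1M2a1, with 14, 13 and 33 counts in total in these tables. By name they fell into 6 young L1Md subfamilies, 33 other rodent L1 (Lx, L1_Mus, L1_Mur, L1VL and the like), 85 L1M, 6 HAL1, 2 L1P and X9_LINE. All 133 names also occurred among the 1489 rows of the small RNA table of repeats, where 106 to 112 had at least 1 count in every library of a comparison.

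The mice were adults of a mixed C57Bl/6J and SV129 background. In Smg6-cKO mice both Smg6 alleles carried loxP sites around exon 9 and Ngn3Cre, active from early postnatal spermatogonia onwards, removed that exon, so that somatic cells of the testis kept SMG6. Controls (CTRL) were littermates without Cre, with 1 or both Smg6 alleles floxed. Long RNA of Spc and RS, enriched by sedimentation of cells in an albumin gradient and selected for poly(A), was sequenced in 3 cKO and 3 CTRL libraries per cell type, and RNA of CBs, precipitated with an antibody to DDX4 from material pooled over mice, in 3 cKO and 4 CTRL libraries. Small RNA came from 5 and 5 Spc and 3 and 3 RS libraries. CB and small RNA columns bear no number that ties them to a sample, so these libraries are named by letters.

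L1 elements copy themselves through an RNA that their own reverse transcriptase turns into DNA at a new site. In mouse, elements of the A, T and Gf types of L1Md can still move, the F types are mostly inactive, and the Lx, L1M and HAL1 rows hold older, decayed copies. In the male germ line PIWI proteins loaded with piRNAs cut L1 RNA and direct DNA methylation to L1 promoters, and piRNA pathway proteins gather in the CB, a cytoplasmic RNA granule of round spermatids that also holds SMG6, the endonuclease of nonsense-mediated decay. A subfamily count sums over all copies in the genome, those inside other transcripts included, so it does not tell which copy or promoter gave the RNA, and in bulk samples fewer cells of a type and less RNA per cell cannot be told apart.

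Totals were 38129415 to 49940226 counts in Spc and RS, 3965541 to 16699210 in CBs and 1129049 to 2807532 on repeats in small RNA. Smg6 itself, summed over all its exons, did not check the labels: its normalized counts were 8168 to 8542 in cKO and 5208 to 8293 in CTRL Spc, and 7675 to 8189 in cKO and 5541 to 9057 in CTRL RS. This count covers the exons outside the deleted one. The cell fractions differed between genotypes in their markers. Of the 10 late spermatid markers (Prm1, Tnp1 and others) all 10 were lower in cKO in Spc, RS and CBs, and they made up 2.25 to 2.79% of counts in CTRL RS against 0.218 to 0.233% in cKO RS. The 8 spermatocyte markers made up 0.0828 to 0.0895% of counts in CTRL RS against 0.153 to 0.175% in cKO RS, with 5 higher; in Spc 1 was higher and 1 lower, and in CBs 1 was lower. Of 4 further spermatid markers all 4 were lower in cKO RS (0.0395 to 0.0492% against 0.104 to 0.115% of counts) and in CBs, and 1 in Spc. The 8 macrophage and 5 Leydig cell markers were all higher in cKO RS, at 0.0194 to 0.0323% of counts against 0.0022 to 0.00299% and at 0.0031 to 0.033% against 0.000551 to 0.000607%, with none of their genes at 0 over a group. Of the Sertoli cell markers 7 of 7 and of the erythroid ones 4 of 5 were higher there too. In Spc 7 of 8 macrophage and 2 of 5 Leydig cell markers were higher in cKO, and 1 macrophage, 5 of 7 Sertoli and 1 of 4 tested erythroid ones lower. In CBs 5 of 5 Leydig, 3 of 5 tested macrophage and 2 of 5 tested Sertoli cell markers were higher and none of these lower, with the 1 tested erythroid marker not called. The part of these differences in the L1 results below was not tested.

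As a share of all counts, L1 differed little between the genotypes in the cells. It took 0.917, 1.25 and 1.24% in the 3 cKO Spc libraries and 1.22, 0.989 and 1.03% in CTRL Spc. In RS it took 1.37, 1.49 and 0.984% in cKO and 1.22, 1.15 and 1.17% in CTRL. The groups overlapped in both cell types, and replicate 3 of cKO RS stood below the other 2. L1Md rows held 22.0 to 24.9% of L1 counts in cKO Spc, 22.2 to 24.1% in CTRL Spc, 30.0 to 34.3% in cKO RS and 29.0 to 30.2% in CTRL RS. In CBs, whose RNA was neither selected for poly(A) nor depleted of ribosomal RNA, L1 took 17.2, 16.4 and 10.9% of counts in cKO and 12.6, 14.1, 11.8 and 9.84% in CTRL. The CB libraries were made with another kit, so no comparison with the cells was made.

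**Figure D1:**
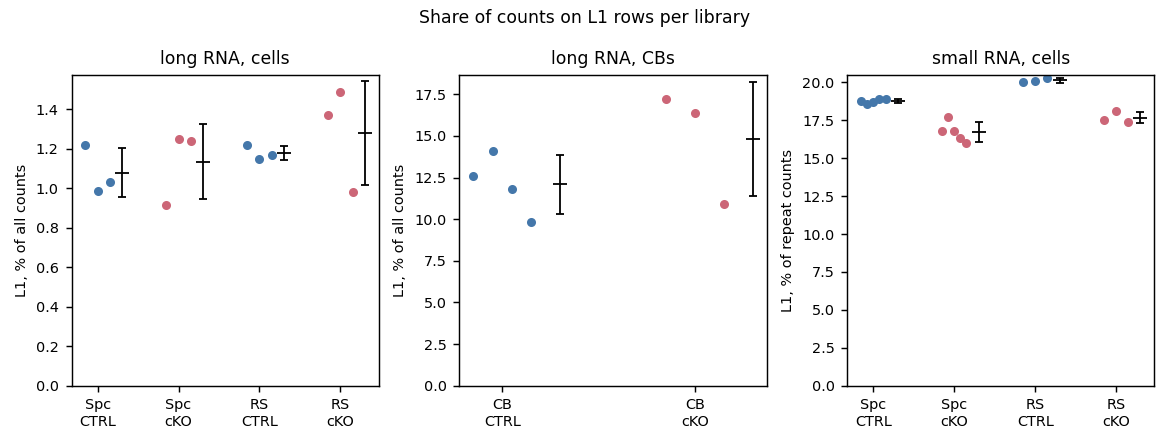
Percent of counts on L1 rows in each library (points), with mean and SD of the group (bars), for long RNA of spermatocytes and round spermatids, long RNA of CBs, and small RNA on repeats. Long RNA groups overlap, while in small RNA every cKO library lies below every CTRL library of its cell type (16 to 17.7 against 18.6 to 18.9% in Spc).

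In spermatocytes few L1 subfamilies differed between cKO and CTRL, and no young one did. Scaled together with genes (TMM), 2 of 133 were higher and 2 lower in cKO when called by edgeR at a Benjamini-Hochberg adjusted p no higher than 0.05, against 13.2% of all 18400 rows higher and 12.9% lower. No L1 also passed a log2 fold change of 1.5, against 3.27% of rows higher and 4.82% lower. The median log2 fold change over L1 was 0.00, beside -0.01 over all rows.

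L1_Rod, a rodent subfamily, and L1MEf were the rows called lower. Its normalized counts were 4086, 5145 and 4705 in cKO and 8502, 8326 and 7842 in CTRL (log2 fold change -0.82 ± 0.101 SE, adjusted p = 0.0031). L1MEf, an old mammalian subfamily, had 2155, 2559 and 2313 in cKO and 4836, 3241 and 3519 in CTRL (-0.72 ± 0.162, adjusted p = 0.019). The groups did not overlap for either, which was a condition for naming them, and 17 of 133 L1 had no overlap. Lx2A1 (0.31, adjusted p = 0.049) and L1MD2 (0.78, adjusted p = 0.05) were the higher ones, just inside the threshold, and Lx2A1 was not called among elements (0.32, adjusted p = 0.23). The 6 L1Md subfamilies had log2 fold changes of -0.09 to 0.18, none called. L1Md_T, for instance, had 20736, 32801 and 29607 in cKO and 34043, 23745 and 23292 in CTRL. Scaled among elements alone, 7 L1 were higher and 4 lower, against 4.17% and 2.78% of all elements. Without CTRL replicate 1, 5 L1 were higher with genes, and without any 1 of cKO replicates 1 and 2 and CTRL replicates 2 and 3 none was.

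In round spermatids most L1 subfamilies were lower in cKO relative to genes, and the median of other elements was close to that of L1. With genes in the scaling, 76 of 133 (57.1%) were lower and 1 was higher, against 33.2% of all 18577 rows lower and 37.9% higher. The median log2 fold change over L1 was -0.44, that over all other elements -0.42 with 39.2% called lower, and that over all rows 0.10. Set against elements alone the shift was gone: 19 L1 were higher and 19 lower, with a median of 0.01, against 13.9% and 14.7% of all elements. Scaled by library size alone, which moves the median of all rows from 0.10 to 0.65 and the share of higher among all calls from 53.4 to 75.6%, 18 L1 were higher and 10 lower. The L1 median lay 0.53 below that of all rows under both scalings with genes. Direction thus depended on what L1 was set against, and cKO and CTRL shares of all counts overlapped (above). Without 1 library the count of lower subfamilies was 50 (without CTRL replicate 1 or 3) to 89 (without cKO replicate 2).

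The old subfamilies with the lowest fold changes were called lower with genes, among elements and by library size. L1MEf had normalized counts of 1751, 2279 and 1728 in cKO and 8903, 7990 and 8775 in CTRL, so that every CTRL library was more than 3 times every cKO library. Its log2 fold change was -2.16 ± 0.12 with genes (adjusted p = 2e-06) and -1.68 among elements (adjusted p = 8.2e-05). HAL1M8, a truncated L1, had 358.9, 362.3 and 353.7 in cKO and 1010, 999.0 and 916.5 in CTRL (-1.44 with genes, adjusted p = 1.1e-05, and -0.96 among elements, adjusted p = 0.0024). L1M3d followed with -1.37 and -0.91 (79.5, 82.2 and 57.2 in cKO against 164.9, 164.6 and 236.1 in CTRL). Against 10.5% of all rows lower past a log2 fold change of 1.5 and 15.1% higher, 4 L1 were lower past it and none higher. They were L1MEf and 3 thinly counted rows, named after their values were seen: L1M6B (21.8 to 23.1 in cKO, 96.0 to 110.7 in CTRL), X9_LINE (1.6 to 7.7 against 17.8 to 24.2) and L1M2b (0.9 to 4.4 against 5.1 to 13.8). Lx2A1 was the one subfamily called higher with genes, with 1695, 1620 and 1686 in cKO and 1327, 1271 and 1244 in CTRL (0.38 ± 0.0826, adjusted p = 0.0035, and 0.87 among elements, adjusted p = 0.0039).

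**Figure D2:**
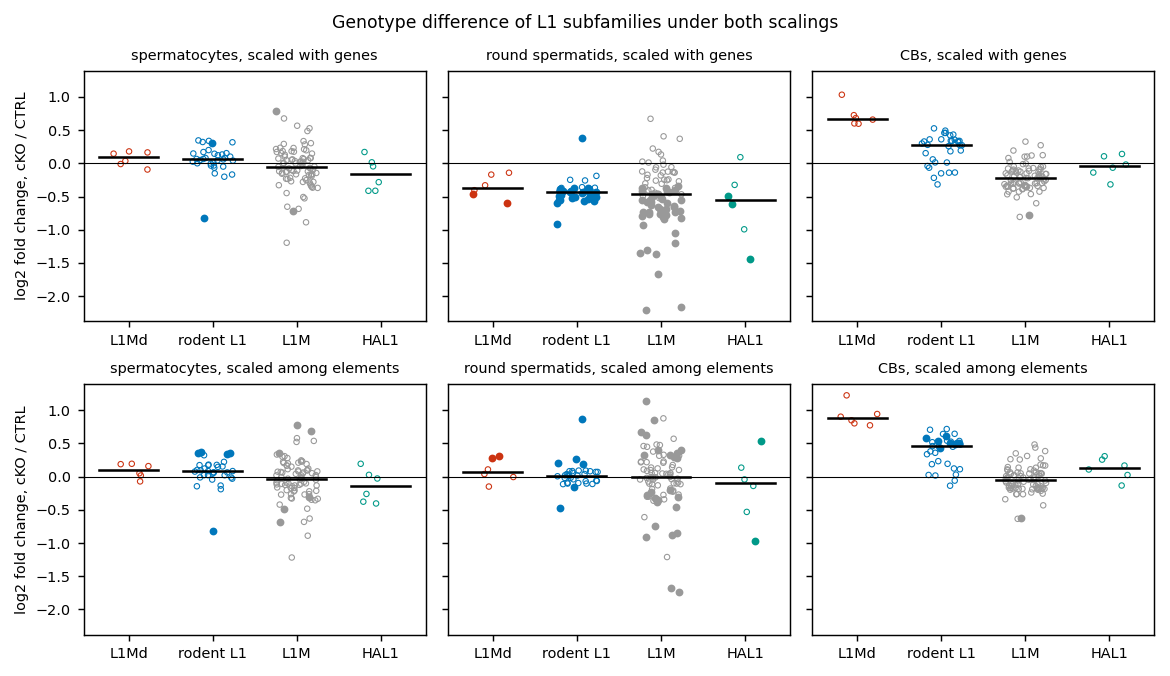
Log2 fold change of cKO against CTRL for each L1 subfamily (points, filled where the adjusted p is at most 0.05) by L1 group, with the group's median (line), for Spc, RS and CBs, scaled with genes (top) and among elements (bottom). L1P and X9_LINE are not drawn. In RS the medians of the groups move from between -0.56 and -0.37 to between -0.09 and 0.07 with the scaling, and in CBs L1Md lies above L1M.

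The direction of the young subfamilies in round spermatids depended on the scaling. With genes all 6 had negative fold changes, -0.60 to -0.14, and 2 were called. L1Md_Gf had 1696, 2320 and 1373 in cKO against 2969, 2370 and 2831 in CTRL (-0.60 ± 0.185, adjusted p = 0.018), and L1Md_F3 had 17045, 20368 and 12768 against 23480, 21700 and 23572 (-0.45 ± 0.149, adjusted p = 0.024). Neither was called among elements (-0.15 and -0.01). L1Md_T, an active type with long promoter arrays, had 35702, 52645 and 28823 in cKO against 55016, 48559 and 51499 in CTRL (-0.40, adjusted p = 0.089). In every L1Md subfamily replicate 3 of cKO was the lowest of the 6 libraries and replicate 2 the highest of the cKO libraries. Among elements L1Md_A (0.28, adjusted p = 0.034) and L1Md_F (0.32, adjusted p = 0.0041) were called higher, which reverses their sign with genes (-0.17 and -0.14, neither called). By library size, which raises all rows alike, their signs reversed too. The rodent group had 24 of 33 lower and 1 higher with genes, and L1M 46 of 85 lower and none higher. Of all rows 33.2% were lower and 37.9% higher. Among elements the rodent group had 2 lower and 4 higher, and L1M 15 lower and 11 higher. Of all elements 14.7% were lower and 13.9% higher.

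In chromatoid bodies the young subfamilies had the highest median fold change of the L1 groups, but the libraries overlapped. With genes none of 133 L1 was higher and 1 was lower in cKO, against 15.2% and 17.5% of all 15155 rows (edgeR; 4 L1 had an unadjusted p under 0.05, and DESeq2 called 2 higher). Past a log2 fold change of 1.5 no L1 was called, against 5.03% of rows higher and 5.54% lower. The 6 L1Md subfamilies had log2 fold changes of 0.60 to 1.03 with a median of 0.67, while the rodent group had a median of 0.28 and L1M of -0.22. L1Md_F2 had the most counts of all L1, with 286626, 508980 and 194725 normalized counts in cKO and 178564, 160023, 218752 and 87396 in CTRL (1.03 ± 0.467, adjusted p = 0.11). L1Md_T had 239261, 227190 and 126255 against 126277, 151691, 175613 and 67281 (0.60, adjusted p = 0.3). The lowest cKO library lay within the CTRL range in both.

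L1ME4c, an old subfamily, was the one lower in CBs, with 295.5, 273.3 and 176.8 in cKO and 434.2, 476.5, 348.7 and 431.2 in CTRL (-0.78 ± 0.207, adjusted p = 0.012). Scaled among elements, 8 L1 were higher and 1 lower, against 7.16% and 2.54% of all elements. All 8, named after their values were seen, were of the Lx kind: Lx2A, Lx2A1, Lx2B, Lx3A, Lx3C, Lx4A, Lx4B and Lx5, with log2 fold changes of 0.43 to 0.61. Of L1 counts, L1Md held 43.1, 53.3 and 45.6% in cKO and 37.1, 34.5, 44.6 and 28.8% in CTRL. Depth moved with genotype here: the cKO libraries had 3965541 to 8030314 counts and the CTRL libraries 7243210 to 16699210, with the highest L1Md share in the smallest library and the lowest in the largest. The part of depth in the L1Md values was not tested. Without cKO library a, 12 L1 were lower with genes, and without cKO library c none was, against 2687 and 2024 of all 15155 rows. By library size alone the median of all rows was -0.12 in place of 0.01 and the share of higher among all calls 35.8% in place of 46.5%, with 1 L1 lower.

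Between the cell types, CTRL round spermatids had more L1 than CTRL spermatocytes relative to genes, and of the groups with more than 1 row L1Md had the highest median (0.99). With genes 77 of 133 were higher in RS and 6 lower, against 36.0% and 38.8% of all 18116 rows. The L1 median was 0.40, that of other elements 0.34 and that of all rows -0.05. Among elements 42 were higher and 26 lower, against 26.3% and 25.6% of all elements, with a median of 0.07. By library size alone the median of all rows was -0.47 and 25 L1 were higher and 27 lower, with the share of higher among all calls at 32.8% in place of 48.1%. The L1 median lay 0.46 above that of all rows under both. The CTRL RS libraries are those of the comparison of genotypes, so the values are not independent of it. Late spermatid markers took 2.25 to 2.79% of counts in CTRL RS and 0.406 to 0.79% in CTRL Spc, and their part in this result was not tested.

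All 6 L1Md subfamilies were higher in CTRL RS on both scalings. L1Md_Gf had 2868, 2345 and 2716 normalized counts in RS and 1427, 824.5 and 887.8 in Spc (1.34 ± 0.214 with genes, adjusted p = 0.00094, and 1.02 among elements). L1Md_F had 11047, 10333 and 10635 in RS and 6515, 3747 and 4332 in Spc (1.13). L1Md_T had 53136, 48062 and 49407 against 29608, 20800 and 20370 (1.09 with genes, 0.76 among elements). L1Md_F2 (0.89), L1Md_A (0.68) and L1Md_F3 (0.68) followed. In all 6 no RS library reached down to a Spc library. The groups lay apart, in either direction, in 88 of all 133 L1, so nothing particular to L1Md is read from this. Replicate 1 of CTRL Spc was the highest Spc library in each L1Md subfamily.

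Outside L1Md the order was more varied. The rodent group had 27 of 33 higher and 2 lower, and L1M 38 of 85 higher and 3 lower. L1ME3E (1.56, with 324.1, 248.1 and 322.7 in RS against 119.5, 98.5 and 85.4 in Spc), HAL1M8 (1.54) and L1M6 (226.1, 197.5 and 218.0 against 107.7, 70.3 and 64.9) were the highest with a mean of at least 100 normalized counts, and all 3 were called among elements too. Past a log2 fold change of 1.5 there were 4 higher (these first 2, L1M6B and X9_LINE) and 1 lower, against 15.8% and 16.6% of all rows. Lx2A1 went the other way and was the lowest, with 1282, 1258 and 1193 in RS and 4422, 5287 and 4995 in Spc (-1.98 ± 0.0934, adjusted p = 2.6e-05). L1MEh (-1.25) and L1ME4c (-1.17) were next.

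**Figure D3:**
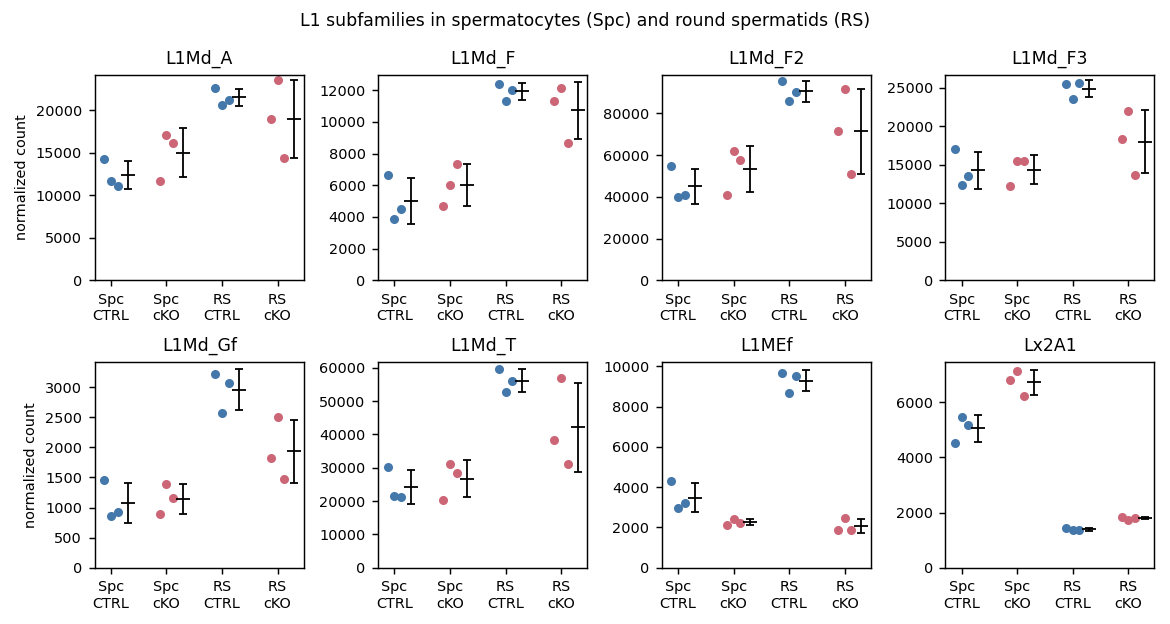
Normalized counts (points) with mean and SD (bars) in the 3 libraries of each group for the 6 L1Md subfamilies, L1MEf and Lx2A1, all 12 libraries scaled together with genes. L1Md rows are highest in CTRL RS on average, L1MEf is higher in RS than in Spc in CTRL (log2 difference 1.30) and not called in cKO (-0.17), and Lx2A1 is lower in RS in both genotypes (-1.98 and -1.95).

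In cKO the step from Spc to RS was smaller with genes in the scaling. Of 133 L1, 5 were higher in RS and 17 lower, against 18.0% and 25.4% of all 18779 rows, with a median of -0.12. Only Lx2A1 was also past a log2 fold change of 1.5 (lower), against 3.09% of rows higher and 3.69% lower. Among elements 39 were higher and 16 lower, against 17.7% and 18.8% of all elements. L1Md_F had 11625, 12886 and 9146 in RS and 4942, 6474 and 8087 in Spc (0.79, adjusted p = 0.014), and L1Md_Gf was the other L1Md called (0.71, adjusted p = 0.04). Among elements all 6 L1Md were higher in cKO RS, by 0.45 to 0.97. Lx2A1 had 1871, 1851 and 1910 in RS against 7179, 7669 and 6869 in Spc (-1.95 ± 0.079, adjusted p = 9.3e-05), close to its value in CTRL. By library size alone 9 L1 were higher and 5 lower, with the median of all rows at 0.15 in place of 0.00 and the share of higher among all calls at 55.7% in place of 41.5%. These counts rest on few libraries: without RS replicate 3, 13 L1 were higher and 6 lower, without Spc replicate 2, 8 and 4, without Spc replicate 3, 2 and 6, and without any 1 of the other 3 libraries 1 was higher and 10 to 13 lower.

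The test of the difference between these steps (genotype by stage) called 47 L1 lower and none higher with genes (edgeR; 72 had an unadjusted p under 0.05, and DESeq2 called 1 higher), against 21.1% of all 19241 rows lower and 19.3% higher. The median was -0.57, beside -0.56 for other elements. Among elements it called 3 lower and 1 higher, against 1.78% and 1.68% of all elements. Past a log2 fold change of 1.5, L1MEf and L1M6B were lower, against 2.24% of rows lower and 8.11% higher. No L1Md subfamily was called on either scaling (-0.70 to -0.42 with genes, -0.15 to 0.14 among elements). L1MEf was the lowest of those well counted on both (-1.55 ± 0.208, adjusted p = 0.00056, and -0.98 among elements, adjusted p = 0.0048). L1M3e (-1.17, adjusted p = 0.022) and HAL1M8 (-1.15, adjusted p = 0.02) were called with genes but not among elements. By library size alone 4 L1 were higher and 2 lower, with the median of all rows at 0.52 in place of -0.12 and the share of higher among all calls at 93.6% in place of 47.7%. With genes the count of lower L1 was 74 without CTRL Spc replicate 1, 22 and 23 without CTRL Spc replicates 3 and 2, 26 without cKO Spc replicate 2, 27 without cKO RS replicate 3 and 28 without CTRL RS replicate 3.

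**Figure D4:**
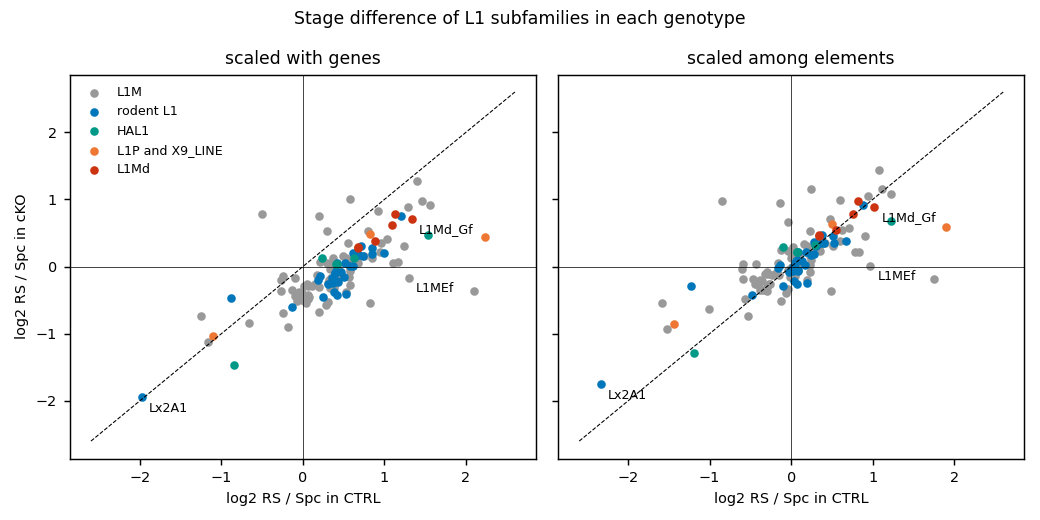
Log2 of RS over Spc in CTRL (x) against the same in cKO (y) for the 133 L1 subfamilies (points, coloured by group), scaled with genes (left) and among elements (right), with the line of equal values (dashed). With genes most points lie below the line, among elements they lie around it, and L1MEf lies below it on both (1.30 against -0.17, and 0.97 against 0.01).

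Genes known to act on L1 were read from the same fits. In the piRNA pathway list, 19 of 20 genes were tested in RS, and 14 were higher and 4 lower in cKO, against 37.9% and 33.2% of all rows. Spermatocyte markers were higher in the same libraries (0.153 to 0.175% of counts in cKO against 0.0828 to 0.0895% in CTRL), and their part in the values of these genes was not tested. Pnldc1, the nuclease that trims piRNA 3' ends, had 402.1 to 636.6 normalized counts in cKO and 134.7 to 148.8 in CTRL (1.76, adjusted p = 0.00016). Tdrd5, needed for processing of precursors, was higher by 1.60, the helicase gene Mov10l1 by 1.01 and Piwil1, the PIWI protein of round spermatids, by 0.81. Piwil1 was itself in the list of spermatocyte markers. Gtsf1, a cofactor of PIWI slicing, had 6389 to 7227 in cKO and 15200 to 17690 in CTRL (-1.32, adjusted p = 4e-06), and Tex15 (-0.95) and, named after their values were seen, Mael (-0.74) and Ddx4 (-0.46) were the other lower ones. In Spc 7 of 19 were higher, led by Pnldc1 (0.55) and Tdrd12 (0.54), and none lower, against 13.2% and 12.9% of all rows. In these Spc libraries all 10 late spermatid markers were lower, and of 8 macrophage markers 7 were higher and 1 lower. The part of these markers in the Spc values was not tested. In CBs 3 of 18 genes of the list were lower, a share close to the 17.5% of all rows, namely Gtsf1 (-1.25), Tex15 (-1.23) and Mael (-0.75).

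Of the list on DNA methylation and chromatin, 16 genes were tested, and 11 were higher and 3 lower in cKO RS, beside the same shares of all rows. Dnmt1, the maintenance methyltransferase, was higher by 2.33 (adjusted p = 1.3e-06) and Hells, a chromatin remodeller, by 1.79. Dnmt3l, the cofactor of de novo methylation, had log2 fold changes of -2.48 in RS and -2.03 in Spc, and Suv39h2, a histone methyltransferase, fell by 1.24 in RS. Among 11 genes that act on L1 RNA or cDNA, 9 were higher and 2 lower in cKO RS, again beside 37.9% and 33.2% of all rows. In the same libraries the macrophage (8 of 8), Leydig (5 of 5) and Sertoli cell markers (7 of 7) were higher, and their part in the values of these gene lists was not tested. Upf1, the helicase of nonsense-mediated decay (2.18), and Zc3hav1, the antiviral protein ZAP (1.57), rose most of those with a mean of at least 100 normalized counts, and the RNase H2 genes Rnaseh2a (-0.73) and Rnaseh2c (-0.77) fell. In Spc 4 of 16 chromatin genes were higher and 1 lower, against 13.2% and 12.9% of all rows. Of the 11 RNA and cDNA genes 1 was higher there and none lower. In CBs 4 of 16 chromatin genes were higher and 2 lower, against 15.2% and 17.5% of all rows. Of the 8 RNA and cDNA genes tested there 6 were higher and none lower. The part of cell markers in these counts was not tested. L1td1, a host gene derived from an L1 reading frame, had 3.97 to 13.3 normalized counts in cKO Spc and 37.2 to 73.2 in CTRL Spc (-2.66, adjusted p = 0.01). Between the CTRL cell types 3 piRNA pathway genes of 19 were higher and 14 lower in RS, against 36.0% and 38.8% of all rows, and in cKO 1 and 15, against 18.0% and 25.4%.

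Small RNA on L1 repeats was a smaller share of repeat counts in cKO in both cell types. It was 16.8, 17.7, 16.8, 16.3 and 16% in the cKO Spc libraries and 18.6 to 18.9% in CTRL Spc, and 17.5, 18.1 and 17.4% in cKO RS against 20, 20.1 and 20.3% in CTRL RS. The groups did not overlap in either. Per 100 counts on piRNA clusters, L1 had 3.75 to 4.10 in cKO and 4.14 to 4.24 in CTRL Spc, and 4.01 to 4.43 in cKO and 4.53 to 4.60 in CTRL RS. The counts hold all small RNA reads that overlap a repeat, shared over positions, and the strand setting is not given in the sources used here.

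In Spc, 16 of 109 tested L1 rows were higher and 41 lower in cKO, against 22.6% and 23.7% of all 810 rows, and among other elements 26.0% were higher and 20.6% lower. Past a log2 fold change of 1.5 there were 1 higher (L1ME3F, a thin row) and 2 lower (L1Md_F and L1ME4c), against 0.494% and 1.73%. The rodent group had 19 of 33 lower and 2 higher, L1M 18 of 64 lower and 13 higher, and L1Md 3 of 6 lower. L1Md_F had 738.5, 987.4, 851.6, 778.4 and 631.6 normalized counts in cKO and 2610, 2647, 2777, 2974 and 2770 in CTRL (-1.79 ± 0.0972, adjusted p = 7.9e-09). L1ME4c had 129.2 to 194.5 in cKO against 564.2 to 665.2 in CTRL (-1.87 ± 0.109, adjusted p = 1.5e-08). L1_Mur2 had 1270 to 1434 against 2805 to 3156 (-1.13), and L1M2, the row with most small RNA, 24594 to 32613 against 40258 to 43055 (-0.62, adjusted p = 3.9e-06). None of these groups overlapped, but this was a condition for naming the lowest called rows. Of the 109 L1 rows 46 had no overlap.

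L1Md_A (-0.50, adjusted p = 0.0047) and L1Md_F2 (-0.25, adjusted p = 0.0047) were the other young rows called lower, while L1Md_T (-0.09), L1Md_F3 (-0.01) and L1Md_Gf (-0.09) were not called. Among the higher rows, L1M4b (253.3 to 317.1 in cKO against 173.4 to 209.0 in CTRL) gave 0.60, Lx3_Mus 0.55 and L1MC4 0.40. The study describes 3 samples per group for this RNA, and the 5 Spc libraries of a group need not be separate samples. With the closest libraries merged to give 3 per group, an alternative chosen after the data were seen, 11 of 113 L1 were higher and 34 lower. Of all 876 rows 114 were higher and 158 lower in that fit.

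In RS, 11 of 109 L1 rows were higher and 28 lower in cKO, against 13.4% and 15.1% of all 850 rows. The same 3 rows passed a log2 fold change of 1.5, against 1.76% of rows higher and 2.12% lower. L1Md_F had 1013, 658.1 and 1259 in cKO and 3357, 3161 and 3126 in CTRL (-1.72 ± 0.207, adjusted p = 0.00077). L1ME4c had 235.6, 173.4 and 174.6 against 620.2, 728.1 and 685.4 (-1.80 ± 0.155, adjusted p = 0.00021), L1_Mur2 gave -1.23 and L1M2 -0.75. Lx3_Mus had 1716, 2372 and 1844 in cKO and 1234, 1255 and 1295 in CTRL (0.65, adjusted p = 0.0069), and L1Md_F3 had 167.5, 233.2 and 193.7 against 129.5, 130.3 and 125.4 (0.63, adjusted p = 0.019). L1Md_T was spread in cKO, with 5242, 1209 and 6692 against 8309, 6257 and 7843 in CTRL (-0.77 ± 0.5, adjusted p = 0.29), library b being the low one. Without that library 46 L1 rows were lower and 11 higher, against 207 and 168 of all 850 rows. Without any 1 of the other 5, 3 (CTRL library a) to 6 were higher and 23 to 27 lower, against 61 to 90 and 88 to 124 of all rows.

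Spc and RS libraries, which are separate libraries, gave a like order of small RNA differences. Across the 106 rows tested in both, Pearson's r of the log2 fold changes was 0.85 and Spearman's rho 0.79, as a description over subfamilies that share libraries and base composition. Of the rows tested in both, 25 were lower in both, which is 61.0% of the 41 lower in Spc and 89.3% of the 28 lower in RS. A further 7 were higher in both, 43.8% and 63.6% of the lists, and none was called in opposite directions. Over the 582 other elements tested in both, r was 0.76 and 73 were lower in both, 59.3% and 84.9% of their lists, and nothing particular to L1 is read from this.

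**Figure D5:**
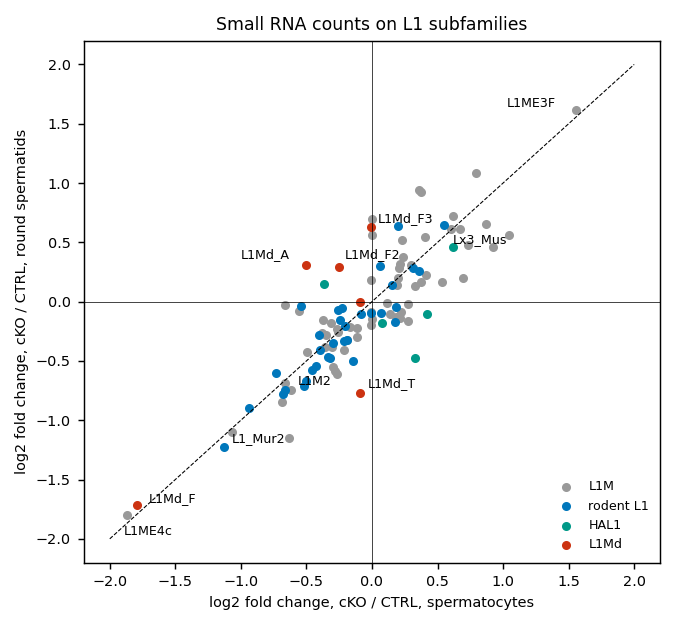
Log2 fold change of small RNA counts, cKO against CTRL, in Spc (x) and RS (y) for the 106 L1 rows tested in both (points, coloured by group), with the line of equal values (dashed). L1Md_F and L1ME4c sit together at the low end of both axes (-1.87 to -1.72), and L1ME3F, a thin row, at the high end (1.55 and 1.61).

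By library size alone, which moves the median of all rows from 0.08 to 0.27 in Spc and from 0.11 to 0.37 in RS and the share of higher among all calls from 48.8 to 72.6% and from 47.1 to 77.6%, 34 L1 rows were higher and 26 lower in Spc, and 21 and 17 in RS. Scaled by the piRNA clusters, the counts were 15 and 41 in Spc and 11 and 24 in RS. Of all rows 175 were higher and 199 lower of 810 in Spc, and 106 and 112 of 850 in RS.

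The differences in small RNA and in long RNA did not go together over the subfamilies. Pearson's r between them was -0.01 in Spc and -0.13 in RS over 109 rows. Over the 629 other elements tested in both in RS it was 0.07, so nothing particular to L1 is read from this. In Spc only 2 of these L1 rows were lower and 2 higher in long RNA, so r there tells little. L1Md_F, the young row with the lowest small RNA log2 fold change in both cell types, had long RNA log2 fold changes of 0.16 in Spc and -0.14 in RS, neither called. L1ME4c, the other row with a low small RNA fold change, had -0.33 and -0.24, neither called, though it was the one lower in CBs. L1MEf, low in long RNA, had small RNA log2 fold changes of 0.19 in Spc and 0.14 in RS, neither called. Of rows tested in both kinds in RS, 20 were lower in both, 29.4% of the 68 lower in long RNA and 71.4% of the 28 lower in small RNA, while 62.4% of all these L1 rows were lower in long RNA, so nothing is read from the overlap. A further 9 were called in opposite directions, Lx2A1, Lx3_Mus and L1Md_F3 among them. Lx2A1, higher in long RNA of cKO, had 359.2, 431.8 and 442.5 small RNA counts in cKO RS and 630.6, 593.2 and 650.1 in CTRL RS (-0.60, adjusted p = 0.0075).

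Between cell types, CTRL RS had 28 of 109 L1 rows higher in small RNA and 15 lower than CTRL Spc, against 17.9% and 19.6% of all 815 rows. No L1 passed a log2 fold change of 1.5, against 0.245% and 1.1% of rows. Scaled by piRNA clusters 23 were higher and 21 lower, with the share of higher among all calls at 35.6% in place of 47.7%, and by library size 25 and 21, with 36.9%. The Spc libraries need not be separate samples (above). With them merged to 3 per group, 26 of 111 L1 rows were higher and 15 lower, against 131 and 159 of all 841 rows. Young rows split. L1Md_T had 7823, 5977 and 7358 in RS and 3453, 4063, 3909, 5193 and 4284 in Spc (0.75 ± 0.105, adjusted p = 6.1e-05). L1Md_F3 (-0.86), L1Md_A (-0.76) and L1Md_F2 (-0.61) were lower in RS, and L1Md_F (0.00) and L1Md_Gf (-0.04) were not called. L1Md_F2, for instance, had 1681, 1558 and 1525 in RS against 2326 to 2498 in Spc (adjusted p = 2.1e-07). In long RNA of the CTRL cells all 6 were higher in RS (above). In cKO no L1 row and none of the 852 rows was called between the cell types (edgeR; 6 L1 and 69 rows in all had an unadjusted p under 0.05, and DESeq2 called none). The difference between the genotypes in this step was not called for any of 106 L1 rows (11 with an unadjusted p under 0.05, 110 of all 793 rows; DESeq2 called 2 L1 higher). The L1Md_F2 value was 0.53 ± 0.129 (adjusted p = 0.09).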

How the data were processed

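The authors aligned trimmed long reads to GRCm38 with STAR and counted genes and repeat subfamilies with TEtranscripts in reverse-stranded mode, and deposited whole-number counts per library. Small RNA was aligned to mm10 with HISAT2 and counted with featureCounts, and the deposited repeat and piRNA cluster values are expected counts that need not be whole. These were rounded. Normalized counts are counts scaled by TMM within a comparison to its mean effective library size, not divided by length, so levels are not compared between subfamilies.

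All tests were two-sided edgeR 4.0.16 quasi-likelihood tests (TMM over genes and elements together, or over all rows for small RNA) in R 4.3.3, with Benjamini-Hochberg adjustment over all rows tested in a comparison and calls at an adjusted p of at most 0.05. Genes needed 10 counts in at least 3 libraries, elements 10 in total in each table, and small RNA rows 1 in every library. The SE is the log2 fold change divided by the root of F. DESeq2 1.42.0, scaling among elements, by library size or by piRNA clusters, other filters, a replicate block and leaving out each library were the alternatives, and the code was tested on simulated data. Figures were drawn with Python 3.11.15. The sources differ on how many testes went into a cell sample (those of 1 mouse, or a pool), CBs were pooled over mice, and small RNA libraries are not tied to samples, so p-values measure the spread between these libraries, which may be technical in part. No pair of libraries differed by as little as sampling noise.

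Named subfamilies were all L1Md, the 3 highest and 3 lowest called ones with a mean of at least 100 normalized counts and no overlap of groups (not asked for the interaction), and the 3 with most counts in each kind of library; pathway genes were the 2 highest and 2 lowest called per list with such a mean, Piwil1 and Mov10l1. Others are said to be chosen after their values were seen or are given as counts. The members, gene lists and markers were chosen with earlier results of these data known. Of the gene lists, Spocd1 and Dnmt3c were tested in no comparison, L1td1 not in RS and CBs, and Piwil4, Trex1, Rnaseh2b and Apobec3 not in CBs, and Tasor is the gene listed under its older symbol Fam208a.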

Additional observations from a re-analysis of the deposited data

Results flagged for a closer look

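In long RNA the genotype difference of 4 of 21 named subfamilies was called as different between round spermatids and spermatocytes by the interaction test of edgeR, with genes in the scaling, against 21.1% of all rows called lower in it. L1MEf, L1M3e and HAL1M8 were named as the lowest called rows of this same test, so their values are a description and their number supports nothing. L1MEf differed by -1.55 (adjusted p = 0.00056, -0.72 in Spc and -2.16 in RS), L1M3e by -1.17 (adjusted p = 0.022, 0.29 and -0.77), HAL1M8 by -1.15 (adjusted p = 0.02, -0.41 and -1.44) and Lx8 by -0.68 (adjusted p = 0.0055, 0.15 and -0.42). Among elements L1MEf kept its call. In spermatocyte small RNA of cKO, library b stood apart from the other 4. Rows named as elements took 94.8% of its repeat counts against 95.3% in each of the others, and L1MC had 18406 normalized counts in it against 14951 to 15423. Of 50 groups of values checked for a library that stands apart, 2 had one, and chance gives about 1 in 20.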

How the results depend on the processing

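Long RNA calls depended on the scaling. Among elements, higher and lower L1 numbered 7 and 4 (Spc), 19 and 19 (RS), 8 higher (CB), 42 and 26 (RS against Spc, CTRL), 39 higher (cKO), and 1 and 3 (genotype by stage). By library size they numbered 18 and 10 (RS), 25 and 27 (CTRL stages), 9 and 5 (cKO stages), 4 and 2 (genotype by stage), and 34 and 26 (Spc) and 21 and 17 (RS) in small RNA. DESeq2 gave 2 higher in CB, 8 in the cKO stages, 1 for genotype by stage and 2 for it in small RNA. Without a count filter 1 was higher in Spc, 2 lower in CB and 9 lower in the cKO stages, and small RNA rows named as elements alone gave 1 higher for genotype by stage. Signs reversed in RS for L1_Mus3 (0.19), L1Md_A (0.28) and L1Md_F (0.32) among elements and for L1Md_A (0.38), L1Md_F (0.41) and L1Md_F3 (0.10) by library size, and in Spc small RNA for L1MC (0.002) by library size. The cause was not tested.

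Leaving out 1 library gave 0 to 5 higher and 1 to 2 lower in Spc, 1 and 50 to 89 in RS, 0 to 1 and 0 to 12 in CB, 56 to 91 and 5 to 7 in the CTRL stages, 1 to 13 and 4 to 13 in the cKO stages and 0 to 1 and 22 to 74 for genotype by stage. In small RNA it gave 12 to 17 and 39 to 43 in Spc, 3 to 11 and 23 to 46 in RS, 26 to 31 and 13 to 15 in the CTRL stages, 0 and 0 in the cKO stages and 0 to 1 and 0 to 1 for genotype by stage. The lower calls over all rows moved too, from 1952 to 2687 in CB and from 88 to 207 in small RNA of RS.

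With the replicate block, 0 were higher and 2 lower in Spc, 68 lower in RS, 74 higher in the CTRL stages, 17 lower in the cKO stages and 47 lower for genotype by stage. Same-numbered libraries deviated together with a correlation of -0.19 to 0.56, in no comparison above 0.1 for every number. Not every library correlated best with its own number. In the cKO stages number 1 had -0.03, number 2 had 0.56 and number 3 had 0.28. With the block 4416 of all rows were higher there and 5083 lower, against 3377 and 4767 without it. In the other comparisons the block called fewer rows. With 3 libraries per group this check cannot tell whether the numbers pair them. For CBs and small RNA no paired analysis was possible because their columns carry no number that ties them to a sample.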
